A study of Oryza sativa with 23 samples.

Results

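In rice leaves of both varieties studied, Hacha and Lachit, 19 genes drew on their annotated transcripts in different proportions under excess iron than under control iron, in the same direction in both varieties. Each library came with a level for every transcript, in TPM (a level per transcript length, scaled to the same total in every library), and the share of a transcript is its TPM divided by the summed TPM of its gene. A gene was taken when it had 2 or more transcripts, a gene TPM of at least 5 in all 4 leaf groups, and a transcript whose mean share differed by at least 0.3 between excess-iron and control leaves, in the same direction in Hacha and in Lachit. Of 35679 genes in the files, 5242 had 2 or more transcripts and 3380 of those were abundant enough in leaves, so the 19 members are 0.562% of the genes the rule could take. The members were chosen by the leaf shares of these same libraries, and the leaf values below are therefore a description without a test. The root libraries were not used in the choice, and tests are given for them.

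The plants were 11 days old, and for the last 2 days their roots were in nutrient solution with 50 µM iron (Fe EDTA, pH 6.2) as the control, or with a further 15 mM iron sulfate at pH 5.2 as the excess. The excess solution was thus also more acid and richer in sulfate, and these effects cannot be told apart from that of iron. Hacha was bred from CRM 53 and IR 64, and Lachit from CRM 13-3241 and Kalinga 2; L2 leaves and whole roots were sampled. Both varieties, both organs and both solutions make 8 groups of 3 libraries, except excess-iron root of Hacha with 2, and the 23 libraries held 16659607 to 33386840 estimated counts each. Nothing in the labels states that replicates are different plants, and the p-values then measure only how far these libraries spread, which can be technical. No library was named by the labels as part of a batch, and no gene names were available for leaf or root markers, so the labelled organs were not checked against markers.

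A plant gene can give several mature RNAs, because introns can be removed or kept, splice sites can be chosen differently, and transcription can begin or end at different places. In plants a kept intron is the most frequent of these alternatives. Transcripts of one gene may encode different proteins, and those with an early stop codon can be removed by nonsense-mediated decay, so the same total RNA level can stand for different products. The proteins of the 19 genes are not named here, since the identifiers are paired with no description in the sources used. Bulk tissue holds many cell types, and a change in the make-up of the leaf cannot be told apart from a change within its cells.

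Within the 19 genes the most abundant transcript did not always change. Between control and excess-iron leaves, a different transcript had the highest mean share in 15 members in Hacha and in 12 in Lachit. It changed in both varieties in 12 members, in 1 variety only in 3 (OS08G0547100, OS05G0302300 and OS01G0881500, each in Hacha) and in neither in 4 (OS04G0654700, OS01G0783200, OS03G0839900 and OS11G0113700). A switch of the main transcript therefore describes 12 of the 19, and the others showed a shift of at least 0.3 that left the same transcript on top in at least 1 variety. In the text the gaining transcript is the one with the higher share under excess iron and the losing transcript is its counterpart.

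The size of the shift differed between the varieties. The median absolute change of the switching transcript was 0.484 in Hacha and 0.356 in Lachit, with ranges of 0.337 to 0.790 and 0.301 to 0.733. It was larger in Hacha in 13 members and larger in Lachit in 6. Across all transcripts of the 3380 genes the median absolute change was 0.117 in Hacha and 0.0413 in Lachit. A change of at least 0.3 in any transcript was seen in 739 genes in Hacha leaves (21.9%) and in 28 in Lachit leaves (0.828%), so Lachit leaves set most of the limit on membership.

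**Figure D1:**
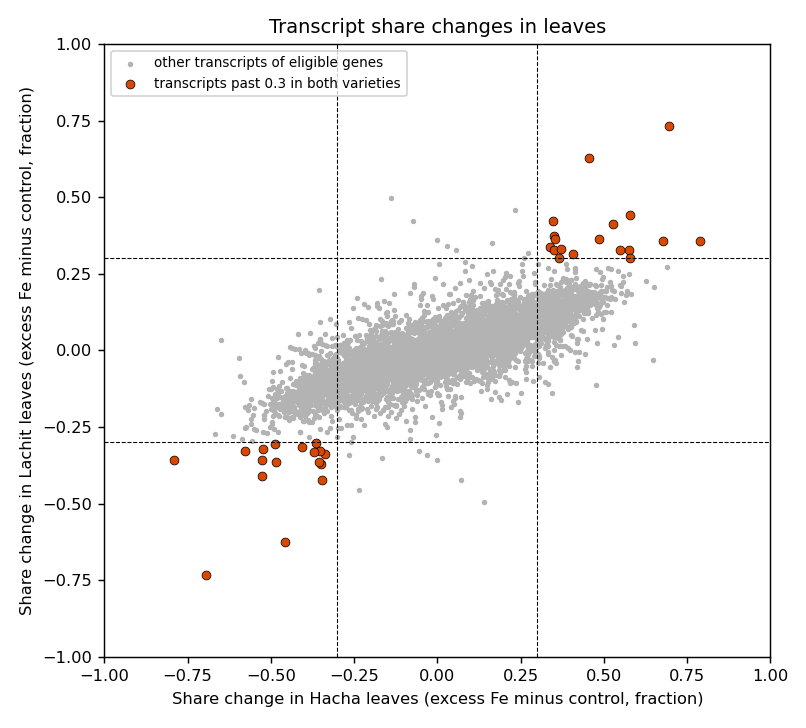
Change of transcript share from control to excess iron in Hacha leaves (horizontal axis, fraction) against Lachit leaves (vertical axis, fraction), 1 point per transcript of the 3380 eligible genes, with dashed lines at 0.3 and -0.3. The coloured points are transcripts of the 19 members, beyond 0.3 in both varieties; far more grey points lie beyond 0.3 along the Hacha axis than along the Lachit axis.

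Some libraries stood apart from their groups in part of the members, and they touch the leaf values above and below. The third excess-iron leaf library of Lachit had a switching share nearer to the control mean than to the mean of the other excess-iron libraries in 10 of the 19 members, and so did 70.9% of the transcripts of all eligible genes. The first control leaf library of Hacha was nearer to the excess-iron mean in 4 members and in 18.2% of all transcripts, so by this count it was close to its background. The first control leaf library of Lachit was nearer to the excess-iron mean in 1 member and in 36.4% of all transcripts. Without the third Lachit excess-iron library the rule took 82 genes, and these held all 19 members; without that library and the first Hacha control library it took 79, and these held 17 of the 19. The mean share of the longest transcript, over the 3380 genes, was also lower under excess iron: it was 0.400 to 0.454 in Hacha leaves against 0.517 to 0.523 in control, and 0.408, 0.448 and 0.489 in Lachit leaves against 0.473 to 0.492. Its part in the shifts of the members was not tested.

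**Figure D2:**
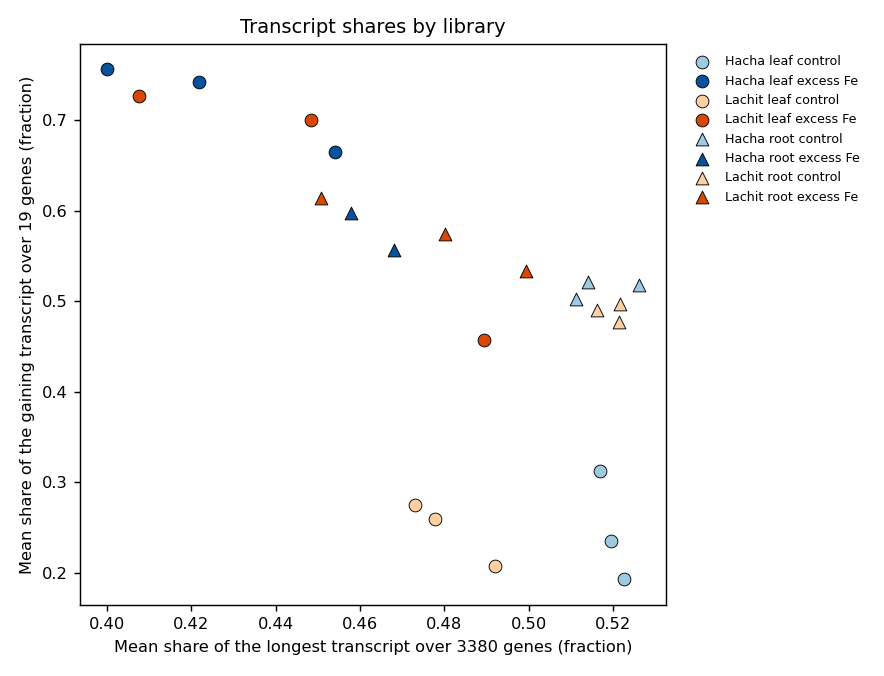
Mean share of the longest transcript over the 3380 eligible genes (horizontal axis, fraction) against the mean share of the gaining transcript over the 19 members (vertical axis, fraction), 1 point per library, with circles for leaf and triangles for root. Excess-iron leaf libraries lie at 0.665 to 0.756 on the vertical axis, apart from the third Lachit library at 0.457, and control leaf libraries lie at 0.193 to 0.312.

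The gaining transcript was the shorter of the pair in 14 of the 19 members (73.7%) and the longer in 5. Over all eligible genes the transcript that gained most was shorter in 68.0% in Hacha and in 65.6% in Lachit. Among the genes with a change of at least 0.3 it was shorter in 90.0% in Hacha (665 of 739) and in 67.9% in Lachit (19 of 28). Members also had transcripts of more similar length. The median length difference was 183 bases in the members and 477.5 bases in the eligible genes, and in 8 members (42.1%) the pair differed by at most 100 bases, against 23.9% of eligible genes. In number of transcripts the members were like the rest, with 2 transcripts in 14 of 19 (73.7%) and in 75.7% of eligible genes. How far the reads could tell the transcripts of a gene apart is not recorded in the files of kallisto, the program that shared them out, and was not tested.

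**Figure D3:**
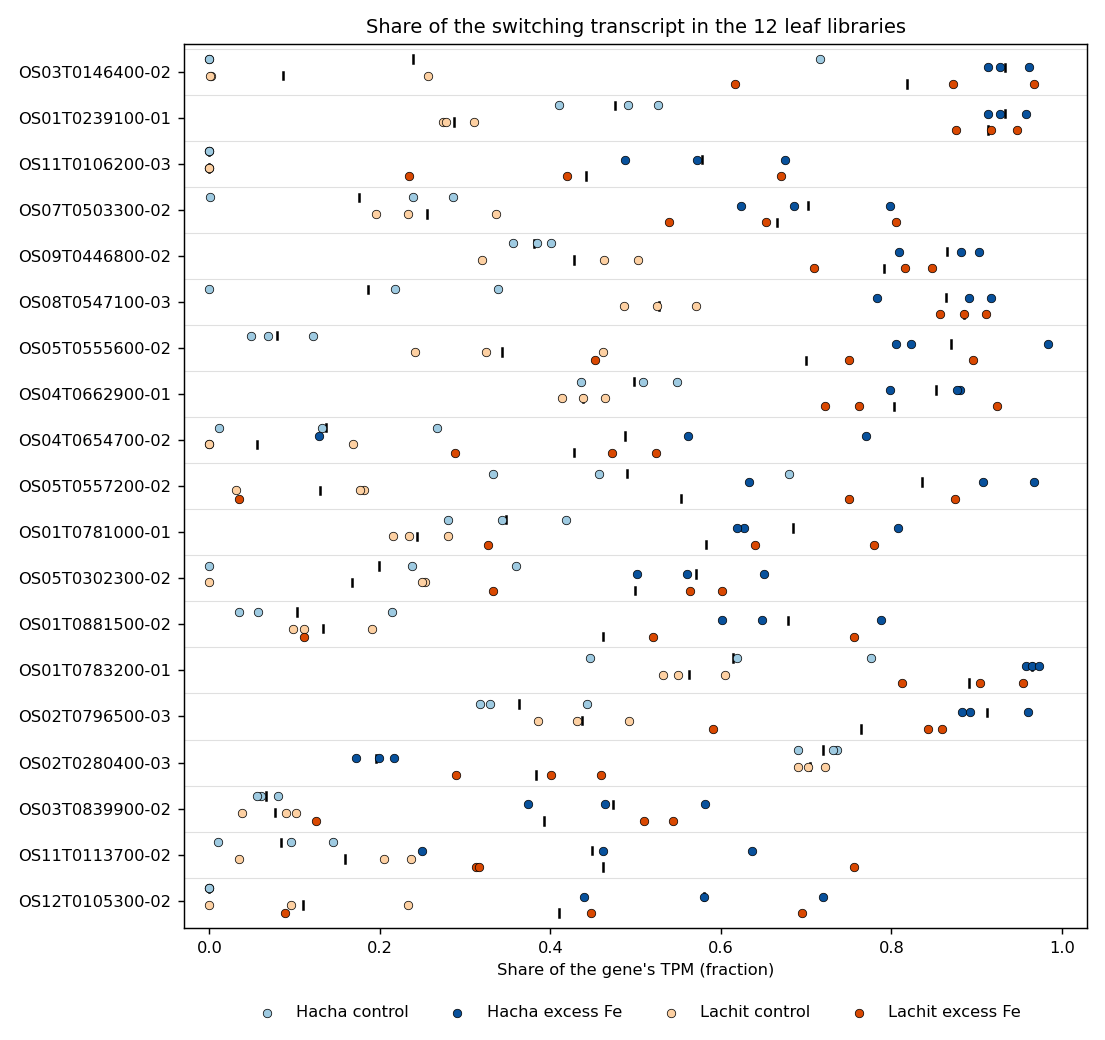
Share of the switching transcript in each of the 12 leaf libraries (horizontal axis, fraction), with 1 row per member, 1 point per library and a bar at each group mean (n = 3 libraries per group). In 14 of the 19 members the excess-iron libraries lie apart from the control libraries in both varieties. Of all transcripts of eligible genes, 62.3% did so in Hacha and 16.7% in Lachit, and no background was counted for both together. The rule used these libraries, and nothing is read from the count.

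Whether the libraries overlapped was read in each variety. The switching share of the 3 excess-iron libraries did not overlap that of the 3 control libraries in 17 members in Hacha and in 15 in Lachit, and in both varieties in 14. The background was high in Hacha, where 62.3% of all transcripts of eligible genes did not overlap, and lower in Lachit at 16.7%. Since the rule used these libraries, nothing is read from the counts.

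Of the 19, OS03G0146400 on chromosome 3 had the largest shift when the smaller of its changes was taken, and it was also the member whose total level differed most upward in Lachit. The share of OS03T0146400-02 (2054 bases) in Hacha leaves was 0.716, 1.47e-05 and 0 in the control libraries and 0.961, 0.913 and 0.927 under excess iron. In Lachit leaves it was 0.256, 0.00202 and 0.000341 in control and 0.873, 0.968 and 0.616 under excess iron. The transcript took over from OS03T0146400-01 (2098 bases) without overlap in either variety, although 1 Hacha control library already stood at 0.716. Gene TPM in the leaf was 33.3 ± 28.7 in Hacha control and 211 ± 79.3 under excess iron, 6.34-fold higher, and in Lachit 17.5 ± 2.45 against 198 ± 57.6, 11.3-fold higher (mean ± SD, n = 3, as for all leaf means below). Without the first Hacha control library, which held 66.4 TPM against 19.4 and 14.3 in the others, the Hacha fold was 12.6. In Hacha the losing transcript stayed at a similar level, 17.5 ± 2.78 against 14.9 ± 8.59 TPM, so the added RNA was the -02 form.

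In 10 members the transcript that gained in excess-iron leaves already carried more than 0.5 of the gene's TPM in both groups of control roots. This is 52.6% of the members; among all eligible genes the transcript that gained most in Hacha leaves did so in 31.0%, and among those that gained at least 0.3 in Hacha leaves in 7.37% (50 of 678). The 10 were grouped after their values had been seen, and no test was made. In 6 of them, OS01G0239100, OS09G0446800, OS08G0547100, OS05G0555600, OS04G0662900 and OS01G0783200, its mean share in control roots was above 0.95 in both varieties. For these 6 genes the control leaves held lower shares, and the excess-iron leaves lay nearer to the roots. Both follow from the way the genes were chosen and are no separate result.

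**Figure D4:**
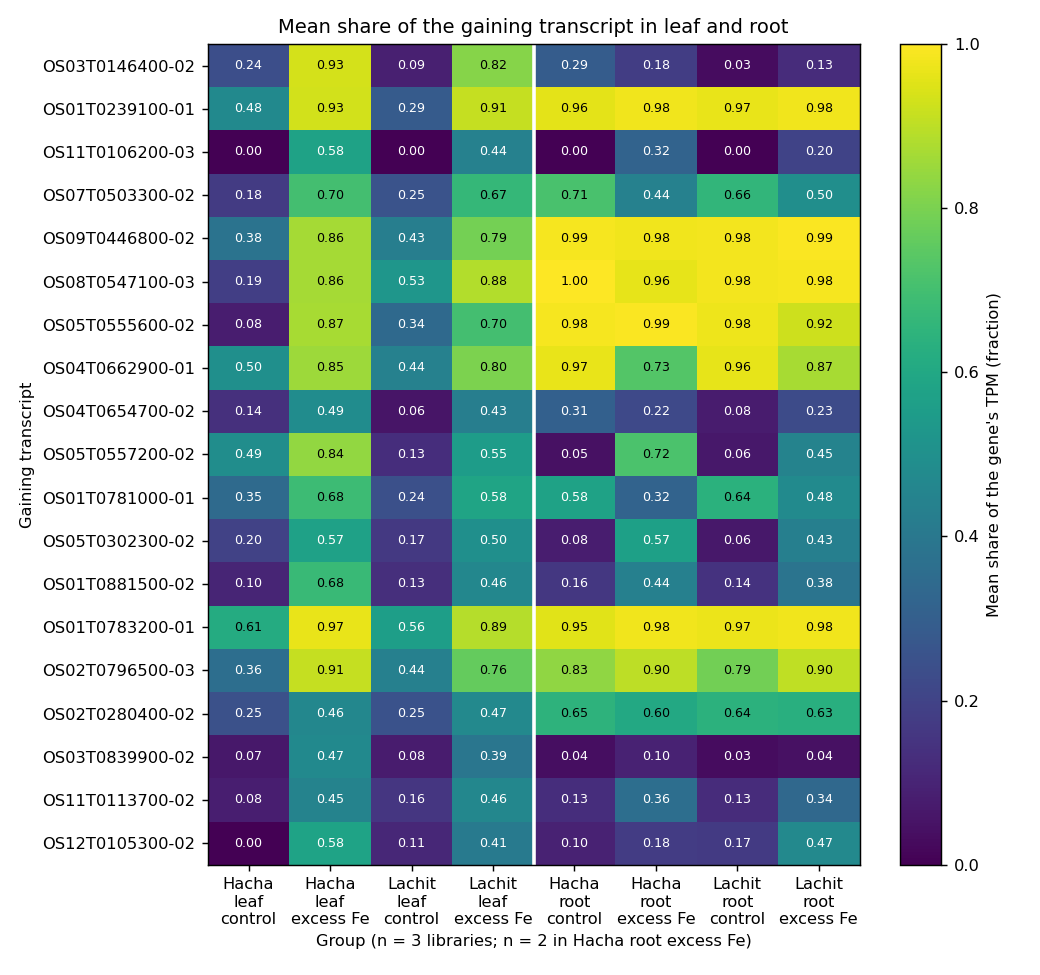
Mean share of the gaining transcript (colour scale and printed value, fraction) for the 19 members in the 4 leaf and 4 root groups, n = 3 libraries per group and n = 2 in excess-iron root of Hacha. In 6 members both control root groups lie above 0.95, and in 7 members both lie below 0.2.

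The clearest of these was OS01G0239100 on chromosome 1, whose transcripts differ most in length in absolute terms: OS01T0239100-01 has 1728 bases and OS01T0239100-02 has 5247. The share of the short form in Hacha leaves was 0.491, 0.527 and 0.410 in control and 0.913, 0.928 and 0.957 under excess iron. For Lachit leaves the shares were 0.310, 0.274 and 0.277 in control and 0.917, 0.947 and 0.876 under excess iron. The groups were far apart, and here the third Lachit excess-iron library lay close to the others of its group. Root shares were 0.958 ± 0.0163 in Hacha control and 0.966 ± 0.00545 in Lachit control. The long form was at 7.62 ± 0.911 TPM in control and 0.921 ± 0.154 TPM in excess-iron leaves of Hacha, and at 7.97 ± 0.303 and 1.87 ± 0.377 TPM in Lachit, while gene TPM was 1.01-fold and 2.06-fold of control.

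OS09G0446800 on chromosome 9 was among the most abundant members in control leaves and had much less RNA under excess iron. Its gene TPM was 270.2 ± 46.5 in Hacha control against 10.8 ± 4.38 under excess iron, 0.0399 of control, and 229 ± 25.2 against 37.4 ± 22.9 in Lachit, 0.164 of control (0.107 without the third excess-iron library). The share of OS09T0446800-02 (2272 bases) was 0.384, 0.401 and 0.357 in Hacha control and 0.882, 0.809 and 0.903 under excess iron. Lachit libraries had 0.463, 0.503 and 0.319 in control and 0.848, 0.816 and 0.710 under excess iron. Both transcripts were lower under excess iron, and OS09T0446800-01 (2359 bases) was lower by more: it was at 168 ± 31.3 TPM in Hacha control and 1.57 ± 1.18 TPM under excess iron, and at 132 ± 36.8 and 8.83 ± 8.31 TPM in Lachit. In roots OS09T0446800-02 was nearly the sole form, at 0.987 ± 0.0124 in Hacha control and 0.982 ± 0.0110 in Lachit control.

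OS05G0555600 on chromosome 5 likewise had less RNA under excess iron, with the largest shift of any member in Hacha. The share of OS05T0555600-02 (1792 bases) was 0.122, 0.0687 and 0.0489 in Hacha control leaves and 0.983, 0.805 and 0.823 under excess iron. In Lachit it was 0.462, 0.325 and 0.242 in control and 0.896, 0.750 and 0.452 under excess iron, and there the groups overlapped through the third excess-iron library. OS05T0555600-01 (2257 bases) was at 149 ± 24.8 TPM in Hacha control and 1.80 ± 1.46 TPM under excess iron, while OS05T0555600-02 was at 12.7 ± 5.37 and 10.9 ± 2.48 TPM. In Hacha leaves nearly all of the difference in this gene lay in the losing form. In control roots the -02 form was at 0.984 ± 0.0100 in Hacha and 0.976 ± 0.0111 in Lachit.

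Both main forms were also lower in both varieties in OS02G0280400 on chromosome 2, the only member with no gaining transcript past the threshold. The share of OS02T0280400-03 (3654 bases) was 0.691, 0.736 and 0.732 in Hacha control leaves and 0.199, 0.172 and 0.217 under excess iron. The Lachit shares were 0.690, 0.703 and 0.722 in control and 0.460, 0.289 and 0.401 under excess iron. The libraries did not overlap in either variety, and the shift in Hacha was larger. The form that gained most, OS02T0280400-02 (1904 bases), was the main one in control roots at 0.646 and 0.643 in Hacha and Lachit, where OS02T0280400-03 was at 0.0338 ± 0.00596 and 0.0308 ± 0.00678. Gene TPM was 0.217 of control in Hacha leaves and 0.426 of control in Lachit leaves.

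OS04G0662900 on chromosome 4 has transcripts of 1242 and 1237 bases. The share of the longer, OS04T0662900-01, was 0.548, 0.509 and 0.435 in Hacha control leaves and 0.881, 0.798 and 0.877 under excess iron. In Lachit it was 0.464, 0.438 and 0.414 in control and 0.763, 0.923 and 0.723 under excess iron, with no overlap in either variety. In control roots it stood at 0.966 ± 0.0105 in Hacha and 0.964 ± 0.0238 in Lachit.

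OS08G0547100 on chromosome 8 rested on the fewest reads of the members, with 77 to 428 estimated counts per leaf library. Its gaining transcript OS08T0547100-03 (1415 bases) is longer than the losing OS08T0547100-01 (784 bases), against the more frequent direction. The share was 2.92e-08, 0.218 and 0.339 in Hacha control leaves and 0.784, 0.891 and 0.917 under excess iron. Lachit gave 0.525, 0.571 and 0.486 in control and 0.911, 0.885 and 0.857 under excess iron, so there the -03 form was already the main one in control. Control roots held it at 0.997 ± 0.00595 in Hacha and 0.981 ± 0.00987 in Lachit. By estimated counts in place of TPM the Lachit shift was 0.246, and the gene would not have been taken.

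In OS01G0783200 on chromosome 1 the main transcript was the same in all 8 groups. The share of OS01T0783200-01 (1917 bases) was 0.776, 0.619 and 0.446 in Hacha control leaves and 0.957, 0.965 and 0.973 under excess iron. For Lachit the values were 0.532, 0.605 and 0.550 in control and 0.904, 0.955 and 0.813 under excess iron. The minor form OS01T0783200-02 (3014 bases) became rarer, while the mean gene TPM was 4.45-fold of control in Hacha leaves and 1.29-fold in Lachit leaves. The Lachit fold had no steady direction. Gene TPM there was 19.7, 21.8 and 20.7 in control and 27.1, 41.6 and 11.3 under excess iron, and without the second excess-iron library the fold was 0.926.

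The other members whose gaining form was the main one in control roots were OS07G0503300, OS01G0781000 and OS02G0796500. OS07G0503300 on chromosome 7 had the largest fold in gene TPM of any member in Hacha leaves, 14.0-fold, from 14.3, 3.03 and 4.13 TPM in control to 126, 102 and 71.8 TPM under excess iron. Without the first of these control libraries the fold was 27.9. In Lachit it went from 11.9, 8.81 and 7.83 TPM to 61.9, 73.2 and 40.4 TPM, 6.15-fold. Both of its transcripts were higher, and OS07T0503300-02 (1686 bases) by more than OS07T0503300-01 (1709 bases): its share was 0.285, 0.00119 and 0.239 in Hacha control and 0.798, 0.624 and 0.686 under excess iron, and 0.336, 0.196 and 0.233 in Lachit control and 0.806, 0.653 and 0.540 under excess iron. No library overlapped, and control roots stood at 0.712 ± 0.0818 and 0.660 ± 0.133 in Hacha and Lachit.

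OS01G0781000 on chromosome 1 gained the longer form, OS01T0781000-01 (970 bases, against 907 for OS01T0781000-02). Its share was 0.344, 0.280 and 0.418 in Hacha control leaves and 0.628, 0.619 and 0.808 under excess iron. Lachit shares were 0.280, 0.234 and 0.216 in control and 0.640, 0.779 and 0.327 under excess iron. The third Lachit library was close to the control range without reaching it. The losing form stayed level, at 18.4 ± 3.71 and 18.1 ± 7.40 TPM in Hacha and 16.4 ± 1.12 and 18.7 ± 9.74 TPM in Lachit, while the gene was 2.01-fold and 2.08-fold of control.

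For OS02G0796500 on chromosome 2, one of 5 members with 3 transcripts, OS02T0796500-03 (2812 bases) took over from OS02T0796500-02 (2995 bases). Its share was 0.443, 0.329 and 0.317 in Hacha control leaves and 0.960, 0.883 and 0.892 under excess iron. For Lachit it was 0.386, 0.493 and 0.432 in control and 0.859, 0.843 and 0.590 under excess iron. The libraries did not overlap, and gene TPM was 2.48-fold and 2.83-fold of control.

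In 7 members the gaining transcript was below 0.2 in both groups of control roots. They were OS11G0106200, OS05G0557200, OS05G0302300, OS01G0881500, OS03G0839900, OS11G0113700 and OS12G0105300. Apart from OS05G0557200, at 0.490 ± 0.176 in Hacha control leaves and 0.130 ± 0.0856 in Lachit control leaves, it was also below 0.2 in both groups of control leaves. OS03G0146400 and OS04G0654700 lay between, with 0.291 ± 0.144 and 0.308 ± 0.209 in Hacha control roots and 0.0319 ± 0.0546 and 0.0778 ± 0.0733 in Lachit control roots.

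OS11G0106200 on chromosome 11 had a gaining form that was assigned no estimated counts in any of the 12 control libraries of leaf and root. OS11T0106200-03 (1467 bases) was at a share of 0.676, 0.487 and 0.572 in Hacha excess-iron leaves and at 0.670, 0.419 and 0.235 in Lachit excess-iron leaves. It was given 342, 197 and 191 estimated counts in the former and 363, 151 and 101 in the latter. In control leaves it had 0 of 1785 estimated counts of the gene in Hacha, which allows up to 0.168%, and 0 of 2370 in Lachit, which allows up to 0.127% (limits of 3 counts over the group, for counting error only). Losing OS11T0106200-02 (2819 bases) was at 5.71 ± 0.528 TPM in Hacha control and 1.91 ± 1.69 TPM under excess iron, and at 6.71 ± 0.279 and 4.75 ± 2.55 TPM in Lachit.

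OS12G0105300 on chromosome 12 resembled it in the lengths of its forms, with 1478 bases for OS12T0105300-02 and 3064 for OS12T0105300-03. The share of the short form was 0 in all 3 Hacha control leaves (0 of 34854 counts, which allows up to 0.00861%) and 0.720, 0.439 and 0.580 under excess iron. In Lachit it was 0.233, 0.0962 and 3.34e-10 in control and 0.695, 0.448 and 0.0884 under excess iron. The Lachit groups overlapped, and the change there of 0.301 was the closest to the threshold of any member. Gene TPM was 0.151 of control in Hacha leaves and 0.507 of control in Lachit leaves. The beginnings of rice chromosomes 11 and 12 carry a recent duplication with near-identical genes, and OS11G0106200, OS11G0113700 and OS12G0105300 have identifiers from these stretches. Reads may have been split between such copies, and the values of these 3 genes are uncertain to that extent.

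OS05G0557200 and OS05G0302300 on chromosome 5 were the members that also met the same rule in roots. The rule took 18 of 3507 genes in roots (0.513%), so the pair is 10.5% of the leaf members and 11.1% of the root genes, and 17 of the 19 leaf members were abundant enough to be taken there. In OS05G0557200, OS05T0557200-02 (1872 bases, against 1906 for OS05T0557200-01) had shares of 0.680, 0.333 and 0.457 in Hacha control leaves and 0.633, 0.907 and 0.968 under excess iron. For Lachit they were 0.0314, 0.182 and 0.177 in control and 0.751, 0.874 and 0.0353 under excess iron. The leaf groups overlapped in both varieties, in Lachit through the third library alone. In roots the groups did not overlap in either variety, and the shares were 0.133, 0.00203 and 0.00272 in Hacha control against 0.764 and 0.668 under excess iron, and 3.95e-05, 0.185 and 0.00251 in Lachit control against 0.614, 0.378 and 0.354.

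In OS05G0302300 the gaining form OS05T0302300-02 is annotated with 238 bases and the losing OS05T0302300-01 with 3420. Its share was 0.359, 0 and 0.238 in Hacha control leaves and 0.650, 0.560 and 0.501 under excess iron, and 0.252, 0.250 and 8.14e-05 in Lachit control and 0.564, 0.601 and 0.333 under excess iron. These shares rest on few reads, 57.9, 38.1 and 20.1 estimated counts in Hacha and 22.6, 28.8 and 9.00 in Lachit under excess iron, which TPM weights by the short length. By estimated counts the shift was 0.0260 in Hacha and 0.0209 in Lachit. Both transcripts were higher in both varieties, and gene TPM was 3.71-fold and 2.66-fold of control.

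OS01G0881500 on chromosome 1 was abundant, with 1749 to 7248 estimated counts per leaf library, and its forms are close in length (2153 for OS01T0881500-02 and 2170 for OS01T0881500-01). The share of the -02 form was 0.215, 0.0345 and 0.0574 in Hacha control leaves and 0.788, 0.649 and 0.602 under excess iron. In Lachit it was 0.111, 0.191 and 0.0977 in control and 0.520, 0.756 and 0.110 under excess iron. The third Lachit library lay within the control range, and the main form changed only in Hacha.

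OS03G0839900 on chromosome 3 gained the longer form, OS03T0839900-02 (3532 bases, against 3324). Its share was 0.0612, 0.0806 and 0.0560 in Hacha control leaves and 0.582, 0.464 and 0.374 under excess iron. Those in Lachit were 0.0895, 0.102 and 0.0388 in control and 0.510, 0.544 and 0.125 under excess iron. The libraries did not overlap, and OS03T0839900-01 remained the form with the higher mean. In Hacha the losing form was at 14.7 ± 4.53 TPM in control and 15.5 ± 2.73 TPM under excess iron, so the gaining form came on top of it.

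OS11G0113700 on chromosome 11 also kept its main transcript. OS11T0113700-02 (1912 bases, against 2043) had shares of 0.0953, 0.0101 and 0.145 in Hacha control leaves and 0.637, 0.249 and 0.462 under excess iron. In Lachit they were 0.237, 0.0350 and 0.204 in control and 0.756, 0.312 and 0.316 under excess iron. The spread within groups was wide, and the groups did not overlap.

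In OS04G0654700 on chromosome 4 the transcripts have 1536 and 1532 bases, and the share of the gaining OS04T0654700-02 was 0.132, 0.0114 and 0.267 in Hacha control leaves and 0.562, 0.129 and 0.771 under excess iron. In Lachit it was 0.000183, 0.168 and 4.83e-08 in control and 0.523, 0.288 and 0.472 under excess iron. The Hacha groups overlapped through the second excess-iron library, and gene TPM differed little, 0.925 and 1.38 of control.

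Shares can change with either transcript, and the members were sorted into 3 kinds by the sign of each difference in mean TPM. No margin was set for the spread between libraries, so small differences count too. The level losing form of OS01G0781000 thus counts as lower in Hacha and higher in Lachit. In Hacha the gaining form of OS05G0555600 counts as lower on a difference within the spread. The gaining form was higher and the losing form lower, by mean TPM, in 12 members in Hacha and 11 in Lachit, 9 of them in both. Both forms were higher in 3 members in Hacha and 5 in Lachit, in both varieties in OS07G0503300 and OS05G0302300. Both were lower in 4 members in Hacha and 3 in Lachit, in both varieties in OS09G0446800, OS05G0555600 and OS02G0280400.

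**Figure D5:**
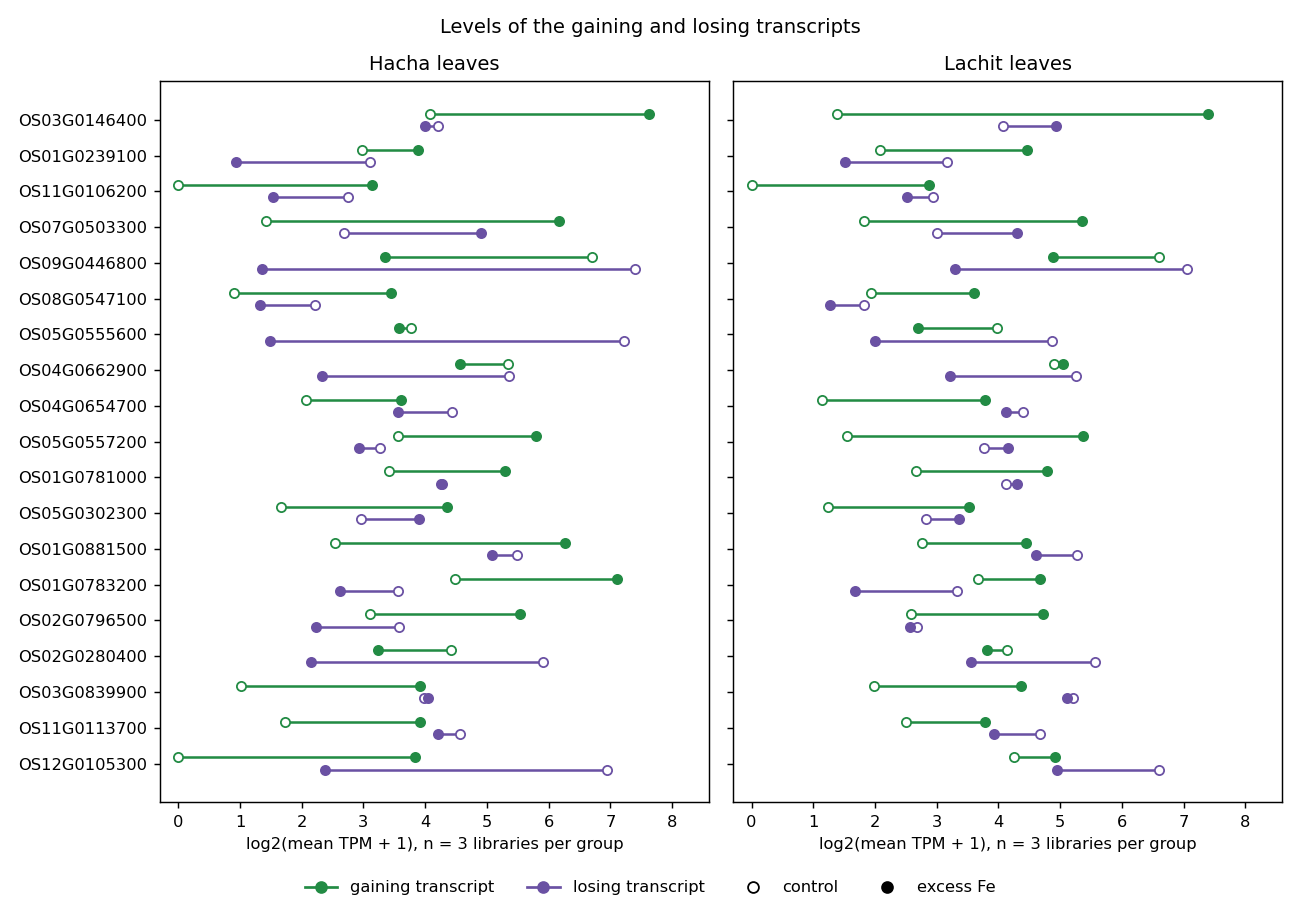
Mean level of the gaining and losing transcript of each member, as log2(TPM + 1), in control (open) and excess-iron (filled) leaves of Hacha (left) and Lachit (right), n = 3 libraries per group. Gaining forms move right in 15 members in Hacha and 16 in Lachit, and losing forms move left in 16 and 14.

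Gene TPM was at least 2-fold higher under excess iron in 9 members in Hacha leaves (47.4%, against 23.5% of eligible genes) and in 8 in Lachit leaves (42.1%, against 19.2%). It was at least 2-fold lower in 5 in Hacha (20.7% of eligible genes) and in 3 in Lachit (9.79%). The median log2 fold was 0.91 in Hacha and 0.45 in Lachit, and over the eligible genes it was 0.17 and 0.39. These folds come from the libraries that chose the members and carry no test.

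In roots, which had no part in the choice, shifts as large as those of the leaf were mostly not seen. The switching share moved in the leaf direction in 11 of the 19 members in Hacha and in 14 in Lachit. That move was at least 0.1 in 5 members in Hacha and in 8 in Lachit. The most abundant transcript changed between control and excess-iron roots in 4 members in Hacha and 2 in Lachit. The median change of the switching share, taken in the leaf direction, was 0.0214 in Hacha and 0.0123 in Lachit, and it reached 0.3 in 3 members in Hacha (OS05G0557200, OS05G0302300 and OS11G0106200) and in 2 in Lachit (OS05G0557200 and OS05G0302300). Members already above 0.95 in control roots had little room to move further in that direction. The libraries did not overlap in 13 members in Hacha and 9 in Lachit, beside 58.2% and 35.6% of all transcripts of eligible root genes.

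Transcript use in roots was tested with edgeR's diffSpliceDGE, which asks whether a transcript's count changes unlike the rest of its gene, with Benjamini-Hochberg adjustment over 9932 transcripts. Of 18 members tested, 1 was called in Hacha (4.78% of all transcripts were) and 1 in Lachit (2.53%), and it was OS11G0106200 each time. On simulated data this test had low power for 2-fold changes, and members without a call may still have changed. OS12G0105300 had a root gene TPM below 1 and was not tested. In the 3 control root libraries of each variety OS11T0106200-03 was assigned no estimated counts (0 of 4704 counts of the gene in Hacha, which allows up to 0.0638%, and 0 of 4368 in Lachit, which allows up to 0.0687%). Excess-iron roots of Hacha gave it 166 and 81.4 counts and shares of 0.346 and 0.288, and those of Lachit 211, 24.2 and 141 counts and shares of 0.311, 0.0362 and 0.253. The adjusted p by edgeR's diffSpliceDGE was 2.68e-05 in Hacha and 6.29e-05 in Lachit, and it stayed below 0.05 in all 16 alternatives of each, at most 0.00668 and 0.0325. Its share rose in roots as it was higher in leaves. No fold is given against a group at 0.

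That test asks about 1 transcript at a time, and an F test of the same tool asks whether any transcript of a gene departs from the others. This gene-level F test of diffSpliceDGE, added after the data were seen, called 8 of the 18 members in Hacha (44.4%, and 32.6% of all 4444 genes) and 5 in Lachit (27.8%, and 19.6% of all genes). Of the 8 in Hacha, the switching share rose in 5 and fell in 3, and of the 5 in Lachit it rose in 4 and fell in 1. Leaving out the first Hacha control root library raised the transcript-level calls in Hacha from 1 to 4, adding OS03G0839900, OS05G0302300 and OS05G0557200. Without the second Lachit control root library there were 2 in each variety, OS05G0557200 being added.

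Rises in roots by the F test were shared by OS11G0106200, OS05G0302300 and OS01G0881500. In OS05G0302300 the share was 0.239, 0 and 0 in Hacha control roots and 0.564 and 0.574 under excess iron, and 0.0227, 0 and 0.169 in Lachit control and 0.567, 0.318 and 0.411 under excess iron (adjusted p of the edgeR F test 0.0283 and 0.0463). In OS01G0881500 it was 0.210, 0.220 and 0.0533 in Hacha control and 0.470 and 0.401 under excess iron, and 0.196, 0.129 and 0.110 in Lachit control and 0.587, 0.215 and 0.347 under excess iron (edgeR F test, adjusted p 0.0333 and 0.0490). Neither gene's libraries overlapped in roots. OS05G0557200 was called by the F test in Hacha (adjusted p 0.0202) and not in Lachit (adjusted p 0.0899, edgeR), and OS01G0239100 in Hacha only, where its share moved from 0.958 ± 0.0163 to 0.979 ± 0.00383 (adjusted p 0.0418, edgeR). OS02G0796500 was called in Lachit only, from 0.787 ± 0.0189 to 0.905 ± 0.00367 (adjusted p 0.0108, edgeR). Several of these calls depend on the test. With limma on the arcsine square root of the share, OS01G0881500 was called in neither variety (adjusted p 0.0709 in Hacha and 0.120 in Lachit), OS05G0302300 was not called in Lachit (adjusted p 0.0705), and OS01G0239100 in Hacha (adjusted p 0.129) and OS02G0796500 in Lachit (adjusted p 0.0671) were lost. By the same limma test OS05G0557200 was called in both varieties, with an adjusted p of 0.0489 in Lachit.

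Falls in roots ran against the leaf. The share of OS04T0662900-01 in Hacha roots was 0.954, 0.974 and 0.969 in control and 0.695 and 0.774 under excess iron, and in Lachit roots 0.979, 0.936 and 0.975 against 0.868, 0.889 and 0.847. The edgeR F test gave adjusted p of 0.000154 and 0.00490. In this gene, then, the form with the higher share in excess-iron leaves had the lower share in excess-iron roots, without overlap between the root libraries in either variety. In Hacha the F test also called falls in OS01G0781000, from 0.577 ± 0.105 to 0.317 ± 0.0242 (adjusted p 0.00879, edgeR), and in OS07G0503300, from 0.712 ± 0.0818 to 0.438 ± 0.0162 (adjusted p 0.0166, edgeR). Lachit values were 0.638 ± 0.111 and 0.477 ± 0.0846 in the first and 0.660 ± 0.133 and 0.496 ± 0.0810 in the second, and neither was called (adjusted p 0.0682 and 0.159, edgeR F test).

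Between the varieties no member was called. For Lachit against Hacha in control roots, edgeR's diffSpliceDGE called 0 of 18 members (2.41% of transcripts were), 0 members were below an unadjusted p of 0.05, and the F test (9.02% of genes) and limma on the arcsine square root of the share called 0. For the difference of the responses, Lachit minus Hacha, diffSpliceDGE called 0 (0.272%) with 0 below an unadjusted p of 0.05, and the F test (2.23% of genes) and limma called 0, with 1 and 2 members below it. These counts do not show that the varieties used their transcripts alike.

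The summed level of the member genes was tested in roots with edgeR's quasi-likelihood test, with Benjamini-Hochberg adjustment over 27479 genes. The test used the summed estimated counts of each gene, without a correction for transcript length. Where forms of unlike length change in proportion, as in OS05G0302300 and OS11G0106200, such counts also depend on the mixture of forms. Its part in the edgeR changes was not tested. It called 15 of 19 in Hacha (78.9%, against 62.3% of all genes) and 11 in Lachit (57.9%, against 58.7%), so the share in Lachit was that of the background. Of these, 12 rose and 3 fell in Hacha, where 29.6% of all genes rose and 32.7% fell, and 9 rose and 2 fell in Lachit, where 29.4% rose and 29.3% fell. The split depends on the scaling: limma on log2(gene TPM + 1) called 11 higher and 6 lower in Hacha, where it called 20.2% of all genes higher and 44.8% lower. OS02G0280400, OS04G0662900 and OS09G0446800 were then added as lower and OS03G0146400 was lost. The median log2 change of all genes in that comparison was -0.05 by edgeR and -0.28 by limma on TPM, a shift of -0.23, and each level change in Hacha roots is relative to the median of its own fit. The shift of a single member can be larger. Gene TPM of OS04G0662900 was 37.1, 31.9 and 32.7 in Hacha control roots and 24.5 and 24.6 under excess iron, while edgeR gave -0.09.

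OS01G0783200 rose most. Its gene TPM was 26.6, 17.4 and 14.4 in Hacha control roots and 266 and 327 under excess iron, and 5.15, 6.00 and 5.21 in Lachit control roots and 52.5, 48.2 and 49.0 under excess iron. The log2 fold change by edgeR was 4.29 ± 0.24 (SE, adjusted p 2.48e-07) in Hacha and 3.34 ± 0.22 (adjusted p 7.97e-07) in Lachit. Its transcript mixture hardly moved in roots, with OS01T0783200-01 at 0.954 ± 0.0191 in Hacha control and 0.979 ± 0.00289 under excess iron. In control roots the gene was lower in Lachit than in Hacha by a log2 change of -1.71 ± 0.21 (adjusted p 0.000133, edgeR).

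OS11G0113700 followed, with gene TPM of 9.59, 6.82 and 6.50 in Hacha control roots and 50.5 and 55.6 under excess iron, and of 17.7, 12.5 and 13.3 in Lachit control and 49.7, 61.6 and 40.9 under excess iron. The edgeR log2 fold change was 3.15 ± 0.18 in Hacha (adjusted p 3.08e-07) and 1.94 ± 0.16 in Lachit (adjusted p 3.19e-06). OS01G0781000 went from 42.3, 42.1 and 39.0 to 95.9 and 125 TPM in Hacha roots and from 36.7, 35.0 and 34.7 to 93.5, 95.6 and 92.5 TPM in Lachit roots (edgeR log2 fold change 1.77 ± 0.12 and 1.55 ± 0.11, adjusted p 7.79e-07 and 1.27e-06). In each of these genes the excess-iron libraries lay above all controls. The other genes that rose in both varieties were OS01G0239100, OS01G0881500, OS02G0796500, OS05G0557200, OS07G0503300 and OS08G0547100, with edgeR log2 fold changes of 0.76 to 1.60 in Hacha and 0.58 to 1.30 in Lachit. OS03G0146400, OS03G0839900 and OS05G0302300 were called higher by edgeR in Hacha alone (0.50, 0.91 and 0.89). In OS03G0146400 the libraries overlapped in gene TPM, at 7.05, 5.85 and 6.24 in Hacha control roots and 6.82 and 6.98 under excess iron. OS05G0302300 was also called in Lachit roots by limma on log2(gene TPM + 1), where edgeR gave 0.24 ± 0.12 (adjusted p 0.0922). Its gene TPM in Lachit roots was 13.1, 11.2 and 11.8 in control and 24.3, 21.0 and 17.9 under excess iron. OS03G0146400 lost its Hacha call without the second excess-iron Hacha library, which left 1 library in that group. It also lost the call with limma on log2(gene TPM + 1) and in the fit of roots and leaves together. In that joint fit OS05G0557200 lost its calls in both varieties (adjusted p 0.0576 in Hacha and 0.120 in Lachit, edgeR).

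Falls were smaller. In Hacha roots OS11G0106200 fell by 0.59 ± 0.12 on the log2 scale (adjusted p 0.00131), OS05G0555600 by 0.77 ± 0.23 (adjusted p 0.0137) and OS04G0654700 by 0.23 ± 0.09 (adjusted p 0.0427), all by edgeR. Gene TPM of OS04G0654700 was 36.8, 37.8 and 37.1 in Hacha control roots and 25.5 and 23.2 under excess iron. Limma on log2(gene TPM + 1) also called that gene in Hacha. In Lachit roots OS04G0662900 fell by 0.58 ± 0.12 (adjusted p 0.00160, edgeR), and OS03G0839900 fell by 0.43 ± 0.10 (adjusted p 0.00385, edgeR) while it rose in Hacha. OS04G0654700 lost its call in 13 of 16 alternatives, with adjusted p of up to 0.164, among them the loss of any Hacha root library. OS05G0555600 lost its call without the first excess-iron Hacha root library (adjusted p 0.106).

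Between the varieties in control roots, edgeR called 6 members (29.7% of genes were): OS03G0839900, OS11G0113700, OS07G0503300 and OS09G0446800 were higher in Lachit, with log2 changes of 1.31, 1.06, 0.75 and 0.37, and OS01G0783200 and OS12G0105300 were lower. Over all genes 14.5% were higher and 15.2% lower. OS12G0105300 was below 1 TPM in all root groups, and its adjusted p of 0.0455 (edgeR) rose to as much as 0.169 in the alternatives. The call of OS09G0446800 was lost without the first Hacha or the second Lachit control root library, with limma on log2(gene TPM + 1) and in the fit of roots and leaves together (adjusted p of up to 0.453), and OS07G0503300 lost its call in the joint fit (adjusted p 0.258, edgeR).

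The difference of the root responses, Lachit minus Hacha, was called for 4 members by edgeR (19.4% of genes were), all with the lower response in Lachit (6.98% of genes): OS03G0839900, OS11G0113700, OS03G0146400 and OS05G0302300. OS03G0146400 and OS05G0302300 both lost this call when the second excess-iron Hacha, the first excess-iron Lachit, the second control Hacha, the third control Hacha or the second control Lachit root library was left out, and the count was then 2.

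The threshold of 0.3 cut through a continuous range. Just inside it, the smaller change was 0.316 in OS03G0839900, 0.303 in OS11G0113700 and 0.301 in OS12G0105300, and just outside it was 0.288 in OS02G0806600, 0.283 in OS10G0476600 and 0.283 in OS05G0494100. With each of the 12 leaf libraries left out in turn, 5 members stayed in every time, OS01G0239100, OS03G0146400, OS04G0662900, OS09G0446800 and OS11G0106200, and 14 dropped out at least once. Without the second excess-iron Lachit leaf library the rule took 12 genes, 10 of them members, and without the first it took 14, 12 of them members.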

How the data were processed

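RNA of L2 leaves and whole roots was made into unstranded TruSeq RNA version 2 libraries, per the labels' protocols, so reads of a gene and its antisense partner cannot be told apart. The authors' estimated counts and TPM values per transcript were made with kallisto before they were deposited, per the file headers. The build IRGSP-1.0 and bcl2fastq are named by the submitters' processing notes; program versions, settings and the transcript set were not given in the sources used here. Deposited lengths (other values, in bases) were read per transcript, per the file headers. The files hold no uncertainty of kallisto's read assignment, so p-values on transcript use may be too small. A deposited table of TPM with 1 transcript per gene was not used.

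Transcripts (42346) were tied to genes by identifier. A group share is the mean of the shares of its libraries. Members, groupings and lists were chosen with earlier results of these data known. All members are named, by a rule that names every member when there are at most 25. The chromosome is the one carried by the identifier. A RefSeq table (ASM3414082v1) matched 1 gene identifier and no member, so the planned lists of splicing and decay factors and of organ markers could not be filled.

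Root estimated counts were rounded and fitted over 4 groups and 11 libraries with edgeR 4.0.16 in R 4.3.3, after filterByExpr and TMM scaling: glmQLFTest for genes and diffSpliceDGE for transcripts, both tested on simulated data. There the transcript-level test had low power for 2-fold changes, so a missing call does not show that a share stayed the same. Calls are at a Benjamini-Hochberg adjusted p below 0.05. Alternatives were other thresholds, shares of counts, size factors as in DESeq2, no filter, DESeq2 1.42.0, limma 3.58.1 on log2(TPM + 1) or on the arcsine square root of shares, 1 fit for both organs, and leaving out each library. A joint loss of 2 leaf libraries, a minimum transcript length of 500 bases, the loss of each leaf library in the count of changed main transcripts and in leaf folds, and the F test were chosen after seeing the data. When 1 library was left of Hacha excess-iron root, its spread was taken to equal that of the other groups. No 2 replicates agreed within sampling noise (chi-square per gene 8.1 to 298). Limits from 0 counts cover counting error only, and not the assignment of reads that several transcripts share.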

Additional observations from a re-analysis of the deposited data

Results flagged for a closer look

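Of the 19 member genes, 4 (21.1%) differed between the varieties in their root response, by edgeR's test of the difference (Lachit minus Hacha, log2, Benjamini-Hochberg adjusted over all genes), beside 19.4% of all genes, so the share was near the background. In OS03G0839900 the responses ran in opposite directions: gene TPM was 23.3, 23.1 and 22.1 in Hacha control roots and 32.7 and 33.0 under excess iron, and 55.4, 49.9 and 48.0 in Lachit control roots and 34.0, 41.7 and 26.9 under excess iron. The log2 changes by edgeR were 0.91 ± 0.11 and -0.43 ± 0.10 (SE), and their difference was -1.35 ± 0.15 (adjusted p 0.000489, and 1.74e-14 to 0.00429 over 16 alternatives). No excess-iron library overlapped the controls in either variety.

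OS11G0113700 rose in both varieties and by less in Lachit, with a difference of -1.22 ± 0.24 (adjusted p 0.00644, edgeR). The call was lost in 1 of 16 alternatives, where the adjusted p was 0.133. Lachit began from a higher level in control roots, 14.5 ± 2.80 TPM against 7.64 ± 1.70 TPM in Hacha, and both ended near 50.7 and 53.1 TPM.

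For OS05G0302300 the difference was -0.65 ± 0.17 (adjusted p 0.0250, edgeR) and 6 of 16 alternatives lost it, with adjusted p of up to 0.129. For OS03G0146400 it was -0.69 ± 0.21 (adjusted p 0.0380, edgeR), and 10 of 16 lost it, with adjusted p of up to 0.506. The latter gene is low in roots, at 4.32 to 7.80 TPM, and most of its leaf response has no counterpart there. Its control and excess-iron root libraries overlapped in gene TPM in both varieties.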

How the results depend on the processing

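The rule took 19 genes. It took 110 at a share threshold of 0.2 and 4 at 0.4, 30 at a gene TPM of at least 1 and 14 at 10, 17 with group shares as a ratio of mean TPM, 17 with shares of estimated counts (13 members kept, OS02G0280400, OS05G0302300, OS08G0547100, OS11G0106200, OS11G0113700 and OS12G0105300 lost) and 18 with transcripts of at least 500 bases (OS05G0302300 lost). Leaving out 1 leaf library gave 12 to 82 genes, and leaving out the third Lachit excess-iron and first Hacha control leaf libraries together gave 79. The count of members with a changed main leaf transcript in both varieties, 12, was 9 to 14 with 1 leaf library left out. Of single leaf share changes, 589 comparisons with an alternative moved by less than the spread between replicates and 7 by more. All 7 were under shares of estimated counts, and none changed sign. Leaving out 1 of 3 libraries cannot move a group mean by as much as their SD. Those comparisons were thus fixed in advance and show no stability, and 14 members dropped out of the rule in at least 1 of them. Of leaf gene folds with 1 leaf library left out, 226 moved by less than that spread and 2 by more, in OS03G0146400 and OS07G0503300 without the first Hacha control library. Folds that changed direction were not counted apart, as for OS01G0783200 in Lachit.

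For root transcript use, the count of 1 in Hacha became 8 with the edgeR F test and 6 with limma, and 1 to 4 with 1 library left out; the count of 1 in Lachit became 5, 3 and 1 to 2. Both counts of 0 between the varieties stayed 0 with any 1 root library left out. At gene level, leaving out 1 root library gave 13 to 15 in Hacha (15), 11 to 12 in Lachit (11), 4 to 6 for Lachit against Hacha in control (6) and 2 to 5 for the difference of responses (4). A fit of roots and leaves together gave 12, 10, 3 and 1 for these 4 comparisons, and limma on log2(gene TPM + 1) gave 17, 13, 5 and 5. Beside the shift in Hacha roots, the latter moved the median log2 change of all genes by -0.11 for Lachit against Hacha in control roots and by 0.11 for the difference of responses. DESeq2 gave 14, 11, 6 and 6. Of alternatives for single called genes in root, 525 kept the call and 51 lost it, and none changed sign; the cause was not tested. No paired analysis was possible because the titles give every library its own running number.

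Few reads lie behind OS08G0547100 and the short form of OS05G0302300. How well reads told the forms of a gene apart was not tested. The root group with 2 libraries enters both Hacha root comparisons.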
